A study of Drosophila melanogaster with 4 samples.

Results

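The genes examined were 9 Drosophila genes that encode chaperones and thiol oxidoreductases of the endoplasmic reticulum (ER), namely Hsc70-3, Gp93, Cnx99A, Pdi, ERp60, CaBP1, prtp, Ero1L and wbl. They were chosen by name as proteins that fold and disulfide-bond secretory cargo, and all 9 were found among the 15340 genes of the normalized counts. RNA came from larvae labelled as whole animals of the second-instar stage, and the methods of the study give the same age for both genotypes. In the libraries labelled mutant the larvae were homozygous for the Xbp1 ex79 allele, a deletion that removes the start codon, the part encoding the DNA-binding domain and the site of splicing by IRE1. The libraries labelled WT came from larvae with an intact Xbp1 locus, of a line in which the transposon of the parent line CB02061 had been excised precisely. The same parent line gave rise to the ex79 allele. There were 2 independent RNA extractions of each genotype, with no treatment, and the sex of the larvae and the number pooled were not given in the sources used here. Since nothing says that the extractions came from separate crosses or broods, p values measure only the spread between these libraries.

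Proteins that enter the ER are held by the chaperones BiP, an Hsp70 protein, and GRP94, an Hsp90 protein. Glycoproteins are also bound by the lectin chaperones calnexin and calreticulin, and protein disulfide isomerases form and reshuffle disulfide bonds with oxidizing power supplied by Ero1. When unfolded proteins accumulate, IRE1 splices the Xbp1 mRNA, and the resulting transcription factor is known in flies, worms and mammals for raising the expression of such folding genes. BiP is the usual transcript by which ER stress is followed, and ATF6 and the PERK-ATF4 branch can act on folding genes as well.

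The reads on genes ranged from 31416284 to 38601267 per library, and 3 reads corresponded to a normalized count between 2.69 and 3.62. The Xbp1 count (FBgn0021872) was 6087 (mutant 1) and 5953 (mutant 2) against 5521 (WT 1) and 7378 (WT 2). These values overlapped, so neither group showed a loss of Xbp1 reads, although ex79 deletes part of the gene. They did not tell which group carries the deletion, and why no loss was seen was not tested. The study did use qRT-PCR of Xbp1 to check that the samples of its qRT-PCR came from null larvae. By its methods that RNA was extracted with TRIzol, and the RNA for sequencing with Qiagen columns. Genes of antimicrobial peptides, listed after their values were seen, did go against the labels. CecB had 3.58 (mutant 1) and 7.18 (mutant 2) against 528 (WT 1) and 72.4 (WT 2), and CecC, Dro, Mtk and Dpt were also below WT in both libraries labelled mutant, with log2 differences from -5.01 for CecB to -1.91 for Dpt. Of all genes tested, 27.9% lay below WT without overlap. Limma called 0 of these 5 antimicrobial peptide genes (adjusted p from 0.336 to 0.347). DESeq2 called CecB, CecC and Dro lower, against 1.36% of all genes tested. Drosomycin (Drs) did not separate the groups, at 13048 and 1264 against 2684 and 2406. Genes of 2 immune-induced peptides, also picked after their values were seen, lay above WT in both libraries labelled mutant. IM2 had 208 and 36.9 against 0 and 14.5, and IM3 had 298 and 130 against 16.2 and 59.1. Limma called neither (adjusted p = 0.347 for each). In RNA sequencing of this same series the study reports CecB, CecC, Mtk, Dro and Dpt as raised in the mutant, with qRT-PCR of antimicrobial transcripts besides. The direction of these genes in the libraries here is therefore opposite to the one the labels call for. Whether the labels are exchanged was not tested. Every direction below is that of the labels, and with exchanged labels each difference would have the opposite sign. The tissue markers did not resemble an even mix of larval tissues. The 6 fat body markers, among them the larval serum protein genes and Fbp1, made up 23.5% and 28.1% of the normalized counts in mutant 1 and mutant 2, against 22.3% and 28.3% in WT 1 and WT 2. Lsp2 and Fbp1 are known for strong expression in the third larval instar, and both were among the most abundant transcripts here, with Fbp1 at 2494028 or more in every library. The summed normalized counts of 4 neuron markers, mostly Syt1, lay between 8300 and 10815, and those of 4 hemocyte markers between 2421 and 3460. Those of 6 muscle markers lay between 293 and 606. Those of 6 salivary gland glue genes lay between 25.2 and 105.7, with Sgs5 at 0 in WT 1. Those of 7 midgut markers lay between 72.4 and 104.6 apart from WT 1, where Jon65Aiv brought the sum to 2670. In these 7, Jon99Ci, alphaTry, betaTry and Amy-p were each at 0 in at least 1 library. Hence the levels below belong to RNA in which fat body genes were among the most abundant messenger RNAs, although the labels say whole larvae. It held few reads of the muscle and midgut markers listed, and other genes of those tissues were not summed. In such bulk RNA, fewer cells of a type and less RNA per cell cannot be told apart.

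Normalized counts of 8 of the 9 genes lay between 412 (Ero1L in mutant 2) and 50997 (Hsc70-3 in mutant 1), and these 8 passed the filter of a mean of at least 10. The wbl gene did not pass it. Levels of different genes were compared per kb of annotated exon. On that scale Pdi, with a mean over the 4 libraries of 9202 ± 1630 (SD, n = 4), and Hsc70-3, with 9057 ± 3722 (SD, n = 4), stood highest. Their ranges overlapped, and the order of the pair differed between the groups. Hsc70-3 was above Pdi in both libraries labelled mutant (14209 against 8094 and 9306 against 9221 per kb, the latter nearly equal), and Pdi was above Hsc70-3 in both libraries labelled WT (7992 against 5931 and 11500 against 6781 per kb). The order was the same in each library when levels were taken per kb of coding sequence. On that scale mutant 2 had 16972 for Hsc70-3 against 14427 for Pdi, so the size of the gap depended on the length used. ERp60 followed at 5472 ± 617 (SD, n = 4) per kb, below Hsc70-3 in all 4 libraries although their ranges overlapped. Gp93 came next at 2931 ± 276 (SD, n = 4). Cnx99A at 1135 ± 135 (SD, n = 4) and CaBP1 at 1056 ± 152 (SD, n = 4) had overlapping ranges. Below them stood prtp at 530.0 ± 20.6 (SD, n = 4), Ero1L at 228 ± 28.5 (SD, n = 4) and wbl at 4.17 ± 1.56 (SD, n = 4), none of which overlapped its neighbours.

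**Figure D1:**
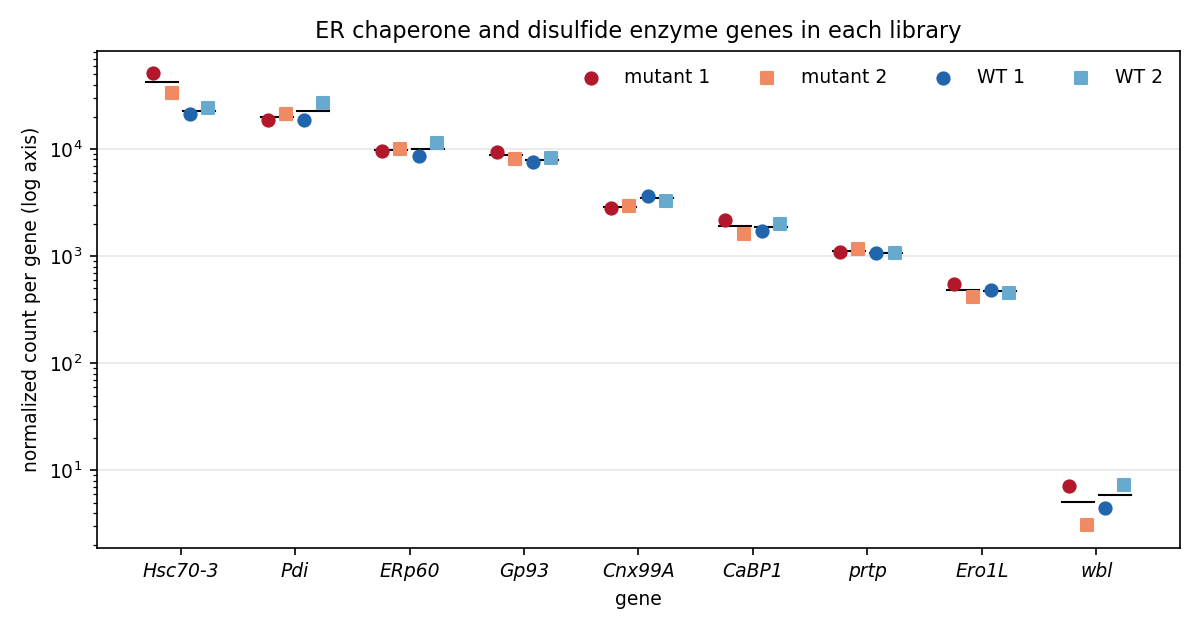
Normalized count of each of the 9 genes in each library on a log axis, with circles for replicate 1, squares for replicate 2, red shades for the libraries labelled mutant, blue shades for those labelled WT and short lines for the mean of each group of 2. Hsc70-3 lay higher in both libraries labelled mutant (50997 and 33400) than in both labelled WT (21287 and 24339), while the 2 groups lay close together or overlapped for the other genes.

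Hsc70-3 (FBgn0001218) encodes the fly BiP, the Hsp70 chaperone of the ER lumen, which binds exposed hydrophobic stretches of new proteins and also restrains the stress sensors. Its position in dm6 is 11801696 to 11807117 on the X chromosome, minus strand, with 5 annotated transcripts of 2 or 3 exons and 1 protein of 656 residues. Its normalized count was 50997 in mutant 1 and 33400 in mutant 2, against 21287 in WT 1 and 24339 in WT 2. Both libraries labelled mutant were therefore above both labelled WT, by a factor of 1.37 between the nearest pair, and mutant 1 stood apart from mutant 2 by more than the groups' nearest libraries did from each other. The mean level was 1.81-fold higher in the libraries labelled mutant on the log scale (log2 difference 0.86, standard error 0.29, 95% interval 0.11 to 1.60). Given the antimicrobial peptide genes above, this direction is in doubt, although IM2 and IM3 differed from those genes in sign. With exchanged labels the log2 difference is -0.86 (95% interval -1.60 to -0.11). The unadjusted p was 0.0311, but the difference did not pass after adjustment over all 10500 genes tested (limma, Benjamini-Hochberg adjusted p = 0.347). DESeq2 on the recovered reads gave an adjusted p of 0.0802, and over all the alternatives the adjusted p ranged from 0.0802 to 0.999. The direction was the same in all 17 alternatives, with log2 differences from 0.55 without mutant 1 to 1.16 without mutant 2. Groups that do not overlap keep their sign when 1 library is left out. Several other alternatives leave the difference unchanged by design, so the count of 17 adds little support. Among all genes tested 27.8% had a larger absolute log2 difference. With 2 libraries against 2, the smallest two-sided p that an exact permutation test can reach for 1 gene is 0.333.

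The sums of the spermatocyte and muscle markers did not overlap between the groups either. The summed normalized counts of the 5 spermatocyte markers were 142.5 (mutant 1) and 428.5 (mutant 2) against 1066 (WT 1) and 468 (WT 2). For the 6 muscle markers the sums were 487 and 606 against 293 and 392. Such separation was common, since 26.2% of all genes tested lay above WT and 27.9% below without overlap. Any part of these sums in the Hsc70-3 result was not tested. The sums of the other marker lists overlapped between the groups. Those of fat body, for example, were 7802792 and 11114367 against 7002081 and 10710789.

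Gp93 (FBgn0039562) encodes the fly GRP94, an Hsp90 chaperone of the ER lumen that completes the folding of a selected group of secreted and membrane proteins. The gene spans 27948711 to 27952151 of 3R (plus strand) and encodes a protein of 787 residues. Its normalized counts were 9452 (mutant 1) and 8002 (mutant 2) against 7645 (WT 1) and 8213 (WT 2). Mutant 1 held the highest value, but mutant 2 lay between the WT libraries, so the groups overlapped. The log2 difference was 0.13 (standard error 0.19, 95% interval -0.35 to 0.62, adjusted p = 0.721 in limma). The exons overlap those of CG4951 on the opposite strand by 101 bp, which is 3.56% of the exonic length of Gp93.

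Cnx99A (FBgn0015622) encodes calnexin, a membrane-bound lectin that holds newly made glycoproteins and that is needed for rhodopsin maturation in the fly eye. It lies on the minus strand of 3R from 29315254 to 29319644, with 4 transcripts of 9 or 10 exons. Its normalized counts were 2829 (mutant 1) and 2943 (mutant 2) against 3677 (WT 1) and 3245 (WT 2). Both libraries labelled mutant were below both labelled WT, by a factor of 1.10 between the nearest pair, and the 95% counting intervals of that pair, 2837 to 3053 and 3124 to 3370, did not meet. Such intervals (exact Poisson) cover counting error only. The log2 difference was -0.26 (standard error 0.17, 95% interval -0.70 to 0.18) and did not pass the test (adjusted p = 0.451 in limma). It was negative in all 17 alternatives, from -0.42 with quantile normalization to -0.17 without WT 1. As for Hsc70-3, much of that count was fixed in advance by groups that do not overlap. Thus Hsc70-3 and Cnx99A had differences of opposite sign in the same libraries.

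The log2 differences of the 5 disulfide enzymes with enough reads to test lay between -0.15 and 0.070, and 0 of the 5 passed the test. Pdi (FBgn0286818; 3L minus strand, 15137738 to 15142840) encodes the classical protein disulfide isomerase, of 496 residues. Its normalized counts were 18843 (mutant 1) and 21467 (mutant 2) against 18605 (WT 1) and 26772 (WT 2). WT 1 held the lowest value and WT 2 the highest, so that both libraries labelled mutant fell within the WT range. The log2 difference was -0.15 (standard error 0.26, 95% interval -0.82 to 0.52). An antisense RNA gene, asRNA:CR45396, overlaps 501 bp or 21.5% of the Pdi exons on the other strand, and whether the counting used the strand was not given in the sources used here. ERp60 (FBgn0033663; 2R minus strand, 11887568 to 11890979), the fly relative of the glycoprotein-directed isomerase ERp57, had 9522 (mutant 1) and 10033 (mutant 2) against 8667 (WT 1) and 11332 (WT 2). It showed the same arrangement as Pdi, with the WT libraries at both ends (log2 difference -0.020, standard error 0.21, 95% interval -0.57 to 0.53). Its exons share 36 bp, or 1.99%, with cuff on the opposite strand.

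CaBP1 (FBgn0025678; 2L minus strand, 16354886 to 16356735), a relative of the mammalian isomerase P5, had normalized counts of 2191 (mutant 1) and 1606 (mutant 2) against 1708 (WT 1) and 2019 (WT 2). Here the libraries labelled mutant stood at both ends and the WT libraries between them (log2 difference 0.015, standard error 0.23, 95% interval -0.56 to 0.59). The prtp gene (FBgn0030329; X plus strand, 11716756 to 11719894) encodes pretaporter, a protein with thioredoxin-like domains that is also known in flies as a ligand of the engulfment receptor Draper. Its normalized counts were 1090 (mutant 1) and 1162 (mutant 2) against 1071 (WT 1) and 1072 (WT 2). The groups did not overlap, but the nearest pair differed by a factor of only 1.02, and their counting intervals, 1029 to 1153 and 1003 to 1145, overlapped. The log2 difference was 0.070 (standard error 0.17, 95% interval -0.36 to 0.50), and prtp was the member that varied least over the 4 libraries (coefficient of variation 3.89%). Rescaling the libraries to the same total brought the prtp groups to overlap and the log2 difference to -0.0016.

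Ero1L (FBgn0261274; 3L plus strand, 4170404 to 4173789) encodes the oxidase that returns disulfide isomerases to their oxidized form, and in flies it is needed for the disulfide bonds of Notch. Its normalized counts were 555 (mutant 1) and 412 (mutant 2) against 488 (WT 1) and 457 (WT 2). As for CaBP1, mutant 1 was highest and mutant 2 lowest (log2 difference 0.018, standard error 0.23, 95% interval -0.58 to 0.61). The adjusted p values of Pdi, ERp60, CaBP1, prtp and Ero1L ran from 0.780 to 0.976 by limma, as adjusted over all genes. The intervals of the folds did not reach below 0.566 or above 1.53 for any of these 5 genes, so that smaller differences in either direction were not excluded at this number of libraries.

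The wbl gene (FBgn0004003; 2R plus strand, 19249395 to 19250917) encodes windbeutel, an ERp29-like protein of 257 residues that is known for letting the sulfotransferase Pipe leave the ER in follicle cells of the ovary. It was barely detected, with 8 and 3 reads in mutant 1 and mutant 2, against 5 and 6 in WT 1 and WT 2, which are normalized counts of 7.17, 3.08, 4.50 and 7.24. The summed reads were 11 in each group, a ratio of 0.928 after scaling (exact binomial 95% interval 0.365 to 2.36, counting error only). The interval holds the ratios that counting error alone allows. It is not a limit of detection, since the spread between libraries is not in it.

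**Figure D2:**
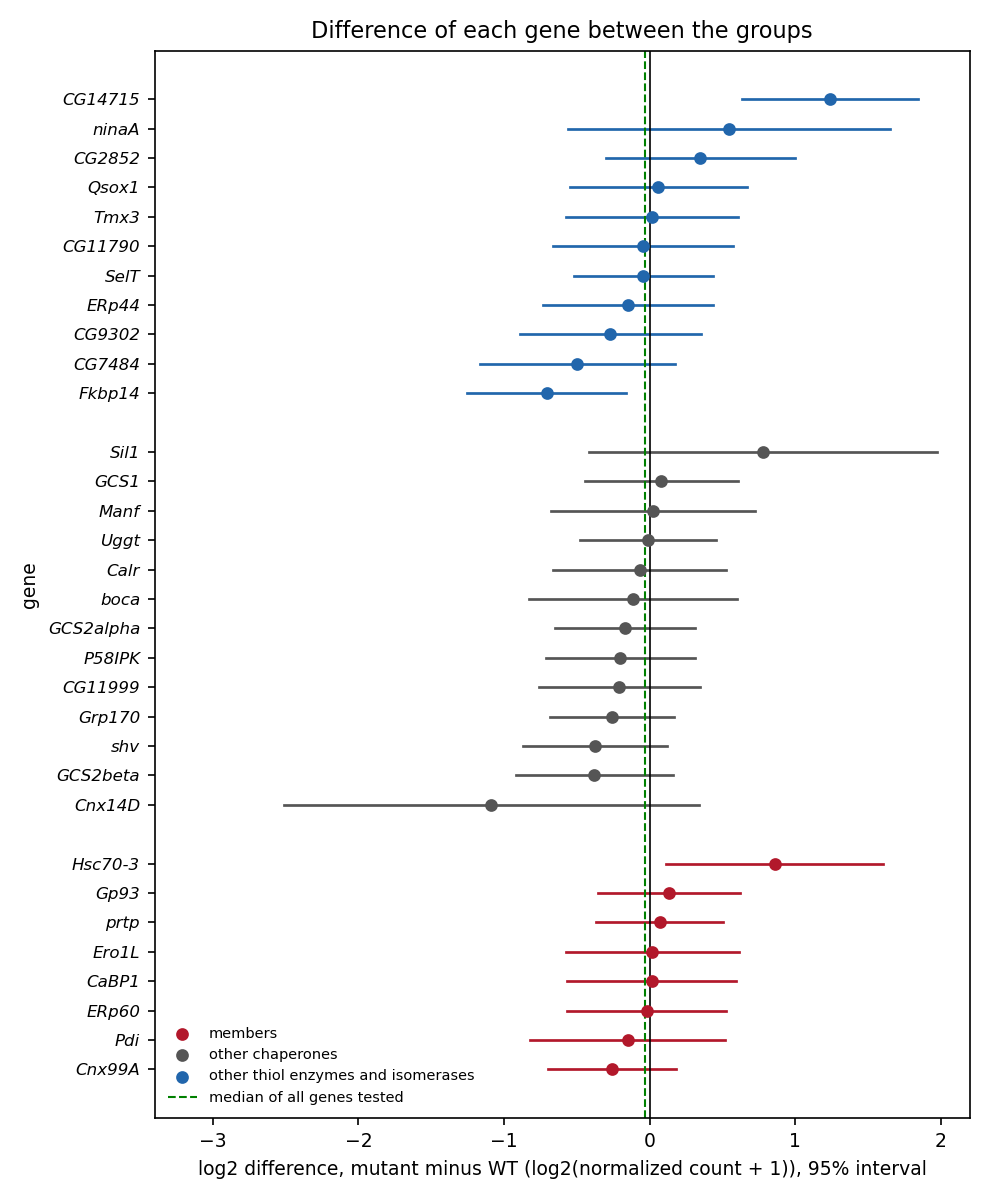
Log2 difference between the libraries labelled mutant and those labelled WT, with its 95% interval from limma, for the 8 members tested (red), 13 other ER chaperone and glycan-dependent folding genes (grey) and 11 other thiol oxidoreductases and prolyl isomerases (blue). The dashed line marks the median of all genes tested (-0.032), and among the members the interval of Hsc70-3 alone lay above 0.

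Of the 8 members tested, 0 passed an adjusted p of 0.05 in either direction by limma over all genes, where 0% of all genes were called lower and 0.00952% (1 gene, CG9451) higher. DESeq2 (1.36% of all genes lower and 1.71% higher) and edgeR also called 0 of the 8. At an unadjusted p under 0.05 in limma, 1 member was higher and 0 were lower, against 6.89% and 7.24% of all genes. Groups that did not overlap were seen for 2 members above WT (Hsc70-3 and prtp) and 1 below (Cnx99A), against 26.2% and 27.9% of all genes tested, so that the count above WT was close to the background. The median log2 difference was 0.016 over the 8 members and -0.032 over all genes tested. These 8 are all members that passed the filter on low counts, not all 9 members.

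The sum of the 9 genes was 95486 and 79028 normalized counts in mutant 1 and mutant 2, against 63152 and 77456 in WT 1 and WT 2. Without Hsc70-3 the sums were 44488 and 45628 against 41865 and 53118, and then the libraries labelled mutant lay between those labelled WT. Per kb of exon, Hsc70-3 took 41.9% and 31.4% of the sum of the 9 genes in mutant 1 and mutant 2, against 24.3% and 22.2% in WT 1 and WT 2. The share of Pdi was 23.9% and 31.1% against 32.7% and 37.7%, so that the shares of both genes kept the groups apart, in opposite directions. The shares of ERp60 (15.5% and 18.8% against 19.6% and 20.6%), Cnx99A (2.98% and 3.56% against 5.38% and 3.81%) and CaBP1 (3.62% and 3.05% against 3.92% and 3.72%) also lay below WT without overlap. Shares of 1 sum are tied to each other, and a larger share of Hsc70-3 lowers every other share.

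**Figure D3:**
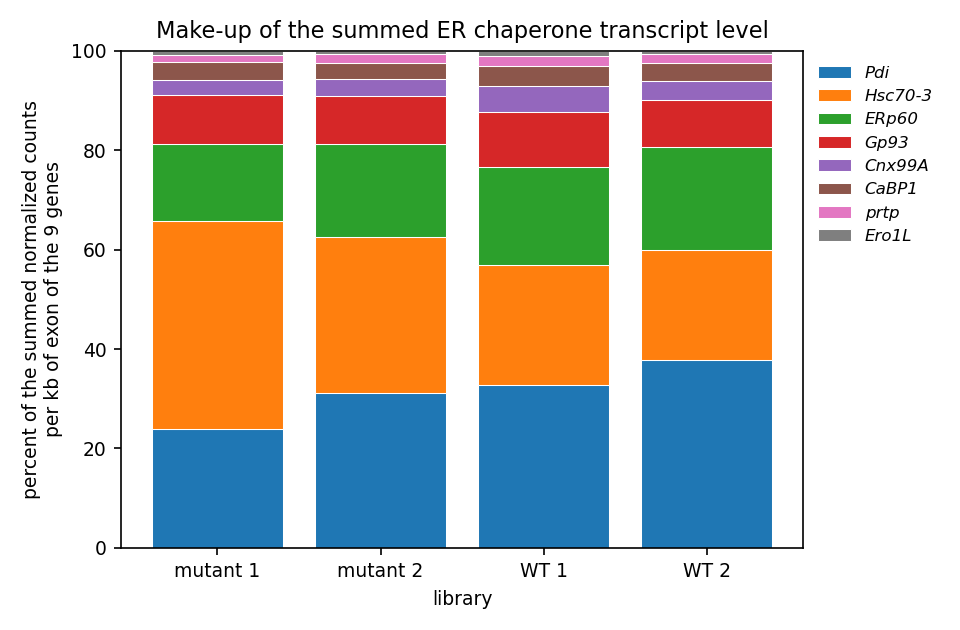
Percent of the summed normalized counts per kb of exon of the 9 genes that each gene took in each library (stacked bars adding up to 100, with wbl too small to draw). Hsc70-3 took 41.9% and 31.4% in mutant 1 and mutant 2, and 24.3% and 22.2% in WT 1 and WT 2.

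Ratios of 2 genes within a library are the same whatever factor scales a library. The ratio of the Hsc70-3 count to the Gp93 count was 5.40 (mutant 1) and 4.17 (mutant 2) against 2.78 (WT 1) and 2.96 (WT 2). To Pdi it was 2.71 and 1.56 against 1.14 and 0.909. To CaBP1, it was 23.3 and 20.8 against 12.5 and 12.1, values that lay closest together within the groups. The ratio of Hsc70-3 to each of the 7 other members tested separated the groups, with mutant 1 and mutant 2 above WT 1 and WT 2 and log2 differences from 0.72 for Gp93 to 1.12 for Cnx99A. The 7 ratios share their numerator and are not independent of each other, and with 2 libraries against 2 they are given as values without a test. Hsc70-3 by itself kept the groups apart by a factor of 1.37, so its ratio to a gene that varied little separates them too. How often its ratio to any other gene does so was not computed. The separation is therefore not a trait of these members.

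**Figure D4:**
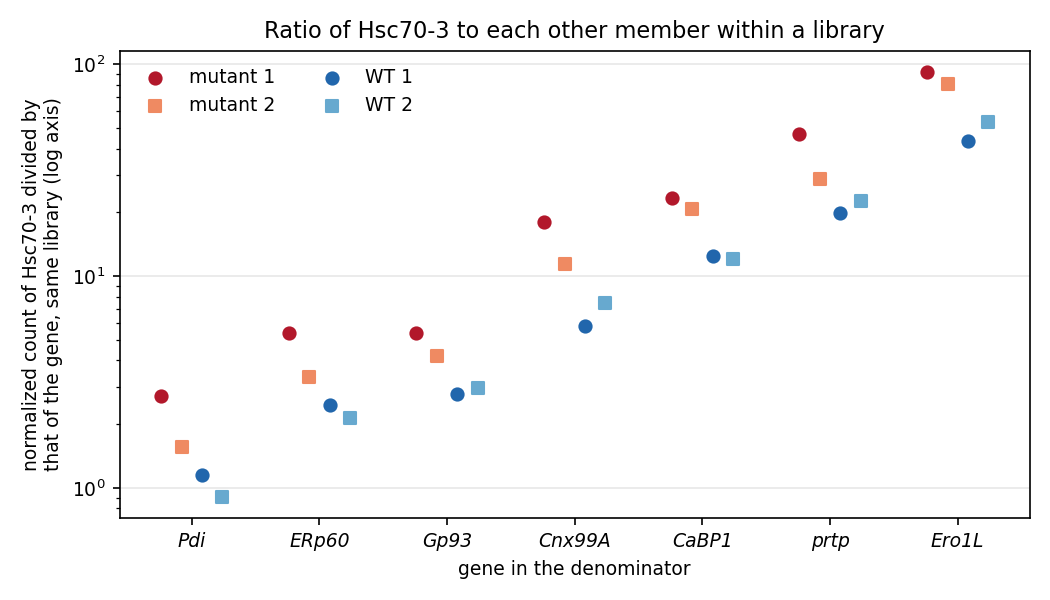
Normalized count of Hsc70-3 divided by that of each of 7 other members in the same library (log axis), with symbols for the 4 libraries as in the plot of counts by gene. In each column both red symbols lie above both blue ones, for example 5.40 and 4.17 against 2.78 and 2.96 for Gp93.

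The sign of the small differences depended on the libraries and the scaling used. Hsc70-3 stayed above 0 and Cnx99A below 0 in each setting, whereas CaBP1 changed sign in 5 of 17 alternatives, Ero1L in 4, prtp in 3, ERp60 and Gp93 in 2 each and Pdi in 1. The groups of Hsc70-3 and Cnx99A did not overlap, so leaving out a library could not turn their sign. When each library was rescaled to the same total, both libraries labelled mutant also lay below both labelled WT for Pdi. Of all genes tested, 28.6% did so under that scaling. Leaving the ribosomal RNA pseudogene CR41602 out of that total, or quantile normalization, added ERp60. There 32.4% and 23.3% of all genes tested lay below WT without overlap, so such separations were common. These scalings shifted the median of all genes to -0.10, -0.18 and 0.071 on the log2 scale, from -0.032 as deposited. Relative to that median, the log2 difference of Hsc70-3 was 0.89 with each of the first 2 and 0.53 with quantile normalization, against 0.89 as deposited. With quantile normalization Pdi, at -0.53, was as far from that median as Hsc70-3, and Cnx99A stood at -0.50 and ERp60 at -0.36.

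**Figure D5:**
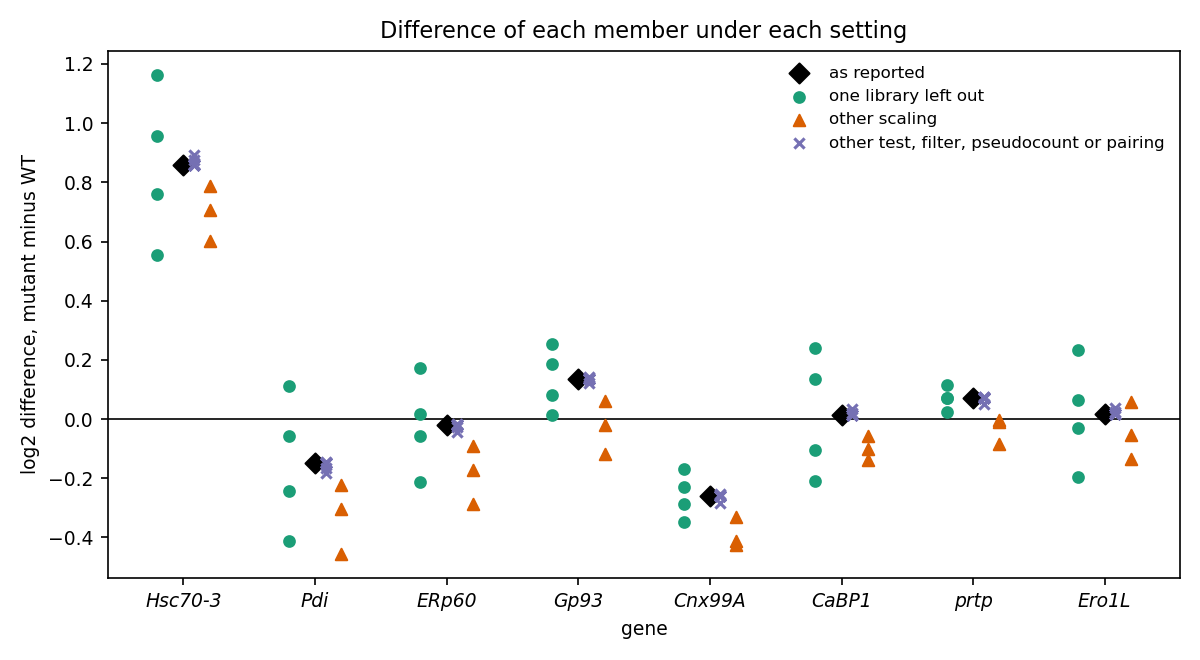
Log2 difference (mutant minus WT) of each of the 8 members tested as reported (black diamond), with 1 library left out (green circles), under other scalings (orange triangles) and with another test, filter, pseudocount or pairing (purple crosses). Hsc70-3 runs from 0.55 to 1.16, and every other member except Cnx99A has symbols on both sides of 0.

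The other folding genes of the ER were read from 2 lists. Of 13 further chaperones and genes of the glycan-dependent folding cycle, all 13 were tested and 0 passed in limma in either direction (0 at an unadjusted p under 0.05, and 0 by DESeq2). Their median log2 difference was -0.17, with 10 negative and 3 positive, against a median of -0.032 with 5476 negative and 5024 positive over all genes tested. The groups did not overlap for 5 genes below WT and 1 above, against 27.9% and 26.2% of all genes tested. The farthest from 0 was Cnx14D, a second calnexin gene, with 62.7 (mutant 1) and 126.1 (mutant 2) against 290.8 (WT 1) and 124.2 (WT 2). Its groups overlapped (log2 difference -1.09, standard error 0.56, adjusted p = 0.374 in limma), and of the alternatives only the crossed replicate block, chosen after seeing the data, called it. The gene above WT was Sil1 (CG10420), known as a nucleotide exchange factor of BiP. Its normalized counts were 360 (mutant 1) and 148 (mutant 2) against 131 (WT 1) and 137 (WT 2), with mutant 1 far above and mutant 2 just above the WT libraries (log2 difference 0.78, standard error 0.47, adjusted p = 0.419 in limma). GCS2beta (CG6453), the noncatalytic subunit of glucosidase II, had 598 and 623 against 700.4 and 899.6 (log2 difference -0.38, standard error 0.21). For shv (CG4164), a DnaJ protein of the ERdj3 family, the values were 453 and 414 against 546 and 579 (log2 difference -0.37, standard error 0.19). Besides GCS2beta and shv, the groups did not overlap below WT for Grp170 (CG2918), P58IPK and CG11999, whose log2 differences were -0.26, -0.20 and -0.21. The lectin chaperone calreticulin (Calr) had 10593 and 11525 against 9849 and 13595, with the WT libraries at both ends as for Pdi and ERp60.

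Of 15 further thiol oxidoreductases and prolyl isomerases of the secretory pathway, 11 were tested and 0 passed in limma in either direction, with 1 higher and 1 lower at an unadjusted p under 0.05, against 6.89% and 7.24% of all genes tested. DESeq2 called 1 higher and 0 lower, against 1.71% and 1.36%. The median log2 difference was -0.043, close to the -0.032 of all genes, and the groups did not overlap for 2 genes above WT and 3 below, against 26.2% and 27.9%. CG14715, a predicted prolyl isomerase of the FK506-binding family, had normalized counts of 942 (mutant 1) and 1030 (mutant 2) against 352 (WT 1) and 492 (WT 2). Its log2 difference was 1.24 (standard error 0.24, adjusted p = 0.322 in limma), and DESeq2 called it at an adjusted p of 0.00971. Its adjusted p over the alternatives ranged from 0.00971 to 0.999. Fkbp14, another prolyl isomerase of that family, had a difference of the other sign, with 2014 and 2160 against 2925 and 3968 (log2 difference -0.71, standard error 0.21, adjusted p = 0.347 in limma). CG7484 and CG9302 also lay below WT without overlap, with log2 differences of -0.50 and -0.27. The cyclophilin gene ninaA, known for rhodopsin folding, had 40.3 and 46.1 against 24.3 and 35.0.

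Among the 1699 non-member genes whose mean reached 1000 normalized counts, wah, CG32479, CG13887, CG10277 and CG31731 had centred log2 values most like the mean profile of the 8 members. The root mean square difference over the 4 libraries was 0.0064 for wah, with normalized counts of 1159 (mutant 1) and 1035 (mutant 2) against 978 (WT 1) and 1096 (WT 2). For the other four it was between 0.018 and 0.019, with log2 differences between 0.068 and 0.11. Hsc70-3 lay farther from that mean profile than any other member, at 0.42 against 0.040 for Gp93, the closest. The genes named here lay closer to that mean than any member did, so it is not the profile of a typical member. A profile over 4 libraries has few degrees of freedom, and such likeness is a description only.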

How the data were processed

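RNA was sequenced from 2 libraries labelled mutant and 2 labelled WT. By the submitters' processing notes and the methods of the study, stranded, ribosome-depleted libraries were read as pairs, aligned to dm6 with TopHat2 (version 2.1.1) and counted per gene with HTSeq (0.6.1). The deposited signal is the authors' normalized count, each read count divided by the DESeq2 size factor of its library. All values (100%, within 0.01 of a whole number) were whole multiples of 1 step per library, which gave the reads back. The ribosomal RNA pseudogene CR41602 held 37.2% to 43.7% of the reads.

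Groups were compared with limma (3.58.1 in R 4.3.3, eBayes with trend) on log2(normalized count + 1), for the 10500 genes whose mean reached 10. P values were adjusted by Benjamini and Hochberg's method and called under 0.05. This scale understates the fold of low genes. DESeq2 (1.42.0) and edgeR (4.0.16) were run on the recovered reads, after a test of all 3 on simulated counts. Other alternatives were pseudocounts, filters, scalings, the replicate number as a block and leaving out each library. Gene positions and exon lengths came from the Ensembl annotation of BDGP6.54, in dm6 coordinates. Older symbols in the added gene lists were matched through RefSeq synonyms, and all were found.

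The members, lists and tests were chosen with earlier results of these data known. Named were the 9 members, Xbp1, up to 3 genes per added list with the largest absolute difference among those whose groups did not overlap, and the 5 genes closest to the members' mean profile. That profile used the 8 members past the filter. Calr, Cnx14D, the antimicrobial peptide genes, IM2 and IM3 were named after their values were seen. So were the genes named only as lying below WT without overlap, and CG9451, the gene limma called.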

Additional observations from a re-analysis of the deposited data

How the results depend on the processing

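The count of members called stayed at 0 of 8 in all 17 alternatives. With 1 gene higher and 0 lower over all genes (1483 at an unadjusted p under 0.05), 3 were higher with no filter on the mean, 10 higher and 4 lower after rescaling to the same total, 2 higher when CR41602 was left out of that total, 12 higher and 4 lower with quantile normalization, 0 higher with an untrended eBayes prior (1294 with unadjusted p below 0.05), and 180 higher and 143 lower by DESeq2. Same-numbered libraries deviated from their group means with a correlation of -0.443 over genes. A replicate block in limma left 0 higher and 0 lower (861 with unadjusted p below 0.05), with Hsc70-3 at an adjusted p of 0.528. 2 settings were chosen after seeing the data: a crossed replicate block gave 390 higher and 1410 lower, and DESeq2 with the replicate block 93 and 74. Leaving out 1 library gave 0 to 39 higher and 0 to 131 lower, the highest of both without mutant 2. In these fits the lone library of a group is assumed to vary like the others.

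Rescaling to the same total turned the log2 differences of CaBP1 (-0.057), Ero1L (-0.054) and prtp (-0.0016). Without CR41602 in that total, those of Gp93 (-0.019), CaBP1 (-0.14), Ero1L (-0.14) and prtp (-0.084) turned, and with quantile normalization those of Gp93 (-0.12), CaBP1 (-0.10) and prtp (-0.010). Quantile normalization also moved Pdi to -0.46, ERp60 to -0.29 and Cnx99A to -0.42, from -0.15, -0.020 and -0.26. The median of the 8 members, 0.016, moved to -0.14 and -0.11 under the last 2. With 1 library left out it ranged from -0.021 to 0.13, Pdi from -0.41 to 0.11, ERp60 from -0.21 to 0.17, CaBP1 from -0.21 to 0.24, Ero1L from -0.20 to 0.23, Gp93 from 0.014 to 0.25, Cnx99A from -0.35 to -0.17 and prtp from 0.024 to 0.12. For Hsc70-3 the range was 0.55 to 1.16. The cause was not tested.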
